A study of Homo sapiens with 9 samples.

Results

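The mitochondrial genome transcripts of PC-3 cells were examined as a set of 37 genes, namely every gene in the deposited count files whose GENCODE symbol starts with MT-. They made up 37 of the 60617 genes listed, with 13 messenger RNAs (mRNAs), 2 ribosomal RNAs (rRNAs) and 22 transfer RNAs (tRNAs). The PC-3 line was established long ago from a human prostate tumour and grows without androgen. RNA sequencing was available for 9 libraries taken after 5 days, 3 from vehicle-treated control cells (Ctrl), 3 from cells given 1 µM decitabine (Dec) and 3 from cells given 1 µM decitabine and 200 µM S-adenosylmethionine (SAM) together (Dec_Sam, the combination treatment). Decitabine is a cytidine analogue that traps DNA methyltransferases on DNA, and SAM is the methyl donor of cellular methylation reactions. The controls received the solvent (sulfuric acid and ethanol in buffered saline), and the medium was changed every other day. Libraries of SAM alone were not analysed here. All libraries came from 1 cell line, and nothing in the sources states whether the replicates were separate cultures, so p-values measure the spread between these libraries, which may be technical.

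The human mitochondrial genome is a small circle of DNA present in many copies per cell. Both of its strands are transcribed almost end to end by a dedicated RNA polymerase, POLRMT, and the long transcripts are cut into single RNAs mostly by removing the tRNAs that lie between the genes. The transcript of the heavy strand carries both rRNAs, 12 of the mRNAs and 14 of the tRNAs, whereas that of the light strand carries MT-ND6 and 8 tRNAs. The rRNAs lie next to the promoter and build the mitochondrial ribosome, and the mRNAs encode core subunits of respiratory chain complexes I, III and IV and of the ATP synthase (complex V).

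In GRCh38 the mitochondrial chromosome is 16569 bases long, and all genes lie on chromosome M without introns. The sequences below, read from that reference and not from these cells, show the parts of the map on which the results turn. The tRNA that separates the 2 rRNAs, and the tRNA between the larger rRNA and the first mRNA, are in capitals, and the lower-case ends belong to the neighbouring genes apart from the 2 bases that separate MT-TL1 from MT-ND1.
MT-RNR1 to MT-RNR2, with MT-TV in capitals, chrM:1582-1690, plus strand: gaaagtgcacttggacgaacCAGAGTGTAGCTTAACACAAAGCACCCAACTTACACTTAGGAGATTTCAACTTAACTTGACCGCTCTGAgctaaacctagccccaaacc
MT-RNR2 to MT-ND1, with MT-TL1 in capitals, chrM:3210-3324, plus strand: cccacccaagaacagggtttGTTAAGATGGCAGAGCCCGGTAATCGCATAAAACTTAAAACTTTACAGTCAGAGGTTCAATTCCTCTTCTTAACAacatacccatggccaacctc

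MT-TF, the first gene of the heavy-strand transcript, and MT-TT, the tRNA that follows the last mRNA (MT-CYB, lower case), are shown because they lie at the ends of the gene order and had enough counts to be tested.
MT-TF, in capitals, chrM:577-647, plus strand: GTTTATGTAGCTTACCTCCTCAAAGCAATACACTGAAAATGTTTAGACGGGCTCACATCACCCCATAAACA
MT-CYB to MT-TT, with MT-TT in capitals, chrM:15868-15953, plus strand: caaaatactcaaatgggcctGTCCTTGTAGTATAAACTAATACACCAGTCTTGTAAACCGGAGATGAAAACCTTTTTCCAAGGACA

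At 2 places a pair of mRNAs is read from one shared RNA with overlapping frames, so the reads of these genes cannot be assigned with certainty. The overlap is in capitals, 46 bases for MT-ATP8 with MT-ATP6 and 7 bases for MT-ND4L with MT-ND4.
MT-ATP8 and MT-ATP6, chrM:8507-8592, plus strand: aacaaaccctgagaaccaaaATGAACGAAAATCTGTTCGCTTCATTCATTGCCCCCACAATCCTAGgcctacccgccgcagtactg
MT-ND4L and MT-ND4, chrM:10740-10786, plus strand: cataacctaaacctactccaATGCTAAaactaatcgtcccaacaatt
MT-ATP6 and MT-CO3 share 1 further base. As annotated, 6 of the 13 mRNAs end within a stop codon that the poly(A) tail completes. MT-ATP6 is not among them, but its stop codon is complete only with the base shared with MT-CO3.

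The libraries held between 21934307 and 22489684 estimated counts. Levels are given as CPM, a count scaled to library depth, here by the trimmed mean of M-values (TMM), and changes as log2 fold changes with their standard error (SE) from edgeR's quasi-likelihood test, with p-values adjusted over all 18532 genes tested and called below 0.05. Of the 37 genes, 18 passed the filter on low counts and were tested, all mRNAs and rRNAs and 3 tRNAs. The 3 comparisons share samples and are therefore not independent of each other. The epithelial markers KRT8, KRT18, KRT19, EPCAM and CDH1 summed to between 726 and 955 CPM in every library, although CDH1 (2.94 ± 0.13, log2) and KRT8 (1.14 ± 0.08) were upregulated and KRT19 (-0.58 ± 0.09) and KRT18 (-0.25 ± 0.08) downregulated after decitabine. The same 4 were called in the same directions after the combination treatment (3.17, 0.80, -0.66 and -0.43), and EPCAM was not called. A list of 12 markers of blood, fibroblast and endothelial cells summed to 14.98 to 16.9 CPM in controls, 97.5 to 111 CPM after decitabine and 92.6 to 104 CPM after the combination treatment. Of its members 7 of 9 tested were upregulated after either treatment, where 36.3% and 35.9% of all genes tested were called higher. LUM (0.116 CPM), DCN (0.0333 CPM), PTPRC (0.0827 CPM), VWF (0.0332 CPM) and CD14 (0.182 CPM) stood near 0 in controls. These genes passed the filter on low counts only through treated libraries, so that their calls carry no weight. The other members called, COL1A1 and PECAM1, stood at 2.98 and 10.1 CPM in controls. No member was at 0 in all libraries. Their part in the results was not tested. Library 3 of the combination treatment stood nearest to decitabine alone among its replicates for most mitochondrial genes, and results that rest on it are given with and without it. Because these are bulk samples, a lower level in each cell cannot be told apart from a lower share of cells that express a gene.

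All 13 mitochondrial mRNAs were downregulated by decitabine, which called 32.5% of all genes tested lower, while both rRNAs were upregulated, beside 36.3% of genes called higher. With library size alone as the scale, 8838 genes were higher and 3758 lower after decitabine, against 6729 and 6030 with TMM. The 13 mRNAs were again called lower and both rRNAs higher. The share of all counts that came from the 13 mRNAs was 3.31%, 3.85% and 4.15% in the controls, 1.21%, 1.06% and 0.807% after decitabine, and 2.46%, 2.62% and 1.47% after the combination treatment. The groups did not overlap in any comparison, with the combination treatment between the others. The share from the 2 rRNAs ran the other way, at 0.470%, 0.548% and 0.579% in the controls, 0.988%, 0.930% and 0.739% after decitabine, and 0.978%, 1.17% and 0.960% after the combination treatment. Both treated groups lay above the controls in rRNA and overlapped each other. Summed over all 37 genes, the share was 4.31% ± 0.481 in controls, 1.91% ± 0.335 after decitabine and 3.22% ± 0.709 after the combination treatment (SD, n = 3 each), and the combination treatment overlapped the controls.

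The balance between the RNA classes needs no scaling between libraries. Controls had 0.141 ± 0.00162 rRNA counts for each mRNA count, decitabine-treated cells 0.871 ± 0.0522 and combination-treated cells 0.499 ± 0.137 (SD, n = 3 each). On the log2 scale the ratio was 2.62 higher after decitabine than in controls and 1.79 higher after the combination treatment, and it was 0.83 lower in the combination treatment than in decitabine alone. No groups overlapped. The ratio was 0.398, 0.445 and 0.655 in combination libraries 1, 2 and 3, so that library 3 lay nearest to the decitabine libraries (0.814 to 0.917). No p is given for these summaries, since 3 against 3 libraries cannot go below an exact permutation p of 0.1.

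**Figure D1:**
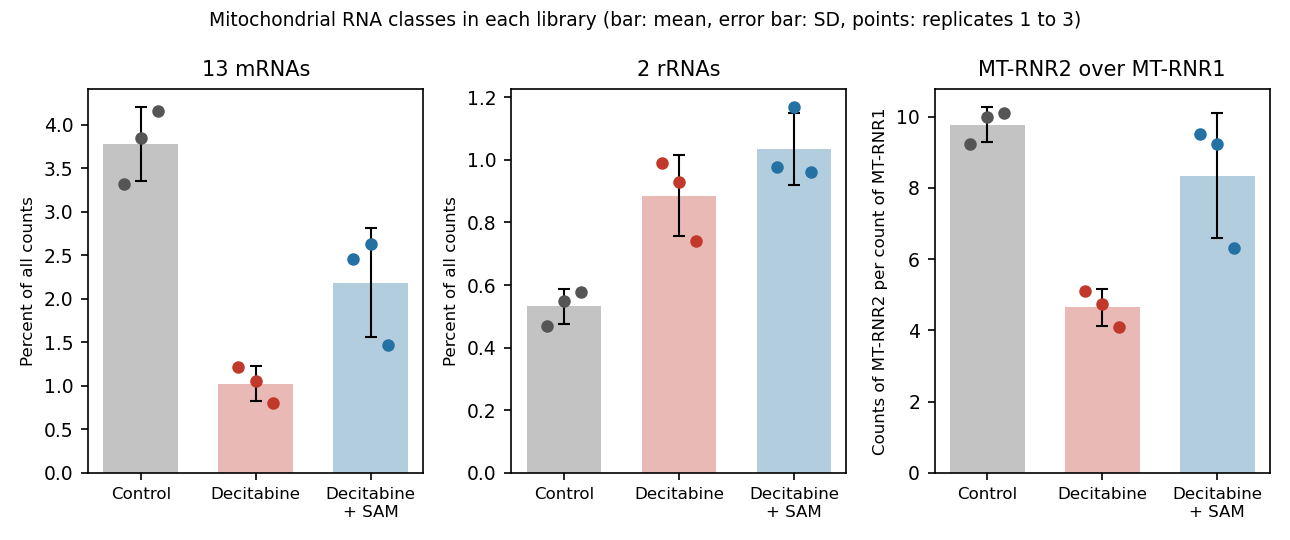
Percent of all counts from the 13 mitochondrial mRNAs (left) and the 2 rRNAs (middle), and counts of MT-RNR2 for each count of MT-RNR1 (right), for the 3 groups. Bars are means, error bars SD and points the 3 libraries of a group; mRNAs averaged 3.77% in controls, 1.03% after decitabine and 2.18% after the combination treatment, while rRNAs averaged 0.532%, 0.886% and 1.04%.

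The ribosomal RNAs were examined first. MT-RNR1 (12S rRNA, ENSG00000211459, chrM:648-1601), the RNA of the small mitochondrial ribosomal subunit, stood at 513, 557 and 577 CPM in controls, 1528, 1530 and 1347 CPM after decitabine, and 901, 1102 and 1227 CPM after the combination treatment. The 3 groups did not overlap, with decitabine highest. Its log2 fold change was 1.42 ± 0.10 (SE) after decitabine (edgeR quasi-likelihood, adjusted p = 3.7e-08) and 0.97 ± 0.10 after the combination treatment (adjusted p = 1.4e-06). Against decitabine alone, the combination treatment was lower by 0.45 ± 0.10 on the log2 scale, a log2 fold change of -0.45 (edgeR adjusted p = 0.011), which was not called without Dec library 2 or without Dec_Sam library 2.

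MT-RNR2 (16S rRNA, ENSG00000210082, chrM:1671-3229), the RNA of the large subunit, followed a different order. Its level was 4730, 5565 and 5836 CPM in controls, 7818, 7260 and 5511 CPM after decitabine, and 8566, 10160 and 7752 CPM after the combination treatment. The combination treatment lay above all controls, whereas Dec library 3 lay within the controls. The log2 fold change was 0.72 ± 0.14 after the combination treatment (edgeR adjusted p = 0.00046) and 0.35 ± 0.14 after decitabine (edgeR adjusted p = 0.034), and the latter was not called in 5 of the 9 fits that left out 1 library, with log2 fold changes of 0.24 to 0.49 over all 9. Between the treated groups it was 0.36 ± 0.14 (edgeR adjusted p = 0.088), although DESeq2 (adjusted p = 0.044) and edgeR with no filter on low counts (adjusted p = 0.0002) called it higher.

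The rRNAs therefore differed from each other. Controls held 9.22, 9.999 and 10.1 counts of MT-RNR2 for each count of MT-RNR1, decitabine-treated cells 5.12, 4.75 and 4.09, and combination-treated cells 9.51, 9.23 and 6.32. Decitabine lay below both other groups, and the combination treatment overlapped the controls. The 2 rRNAs come from the same transcript and MT-TV separates them.

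**Figure D2:**
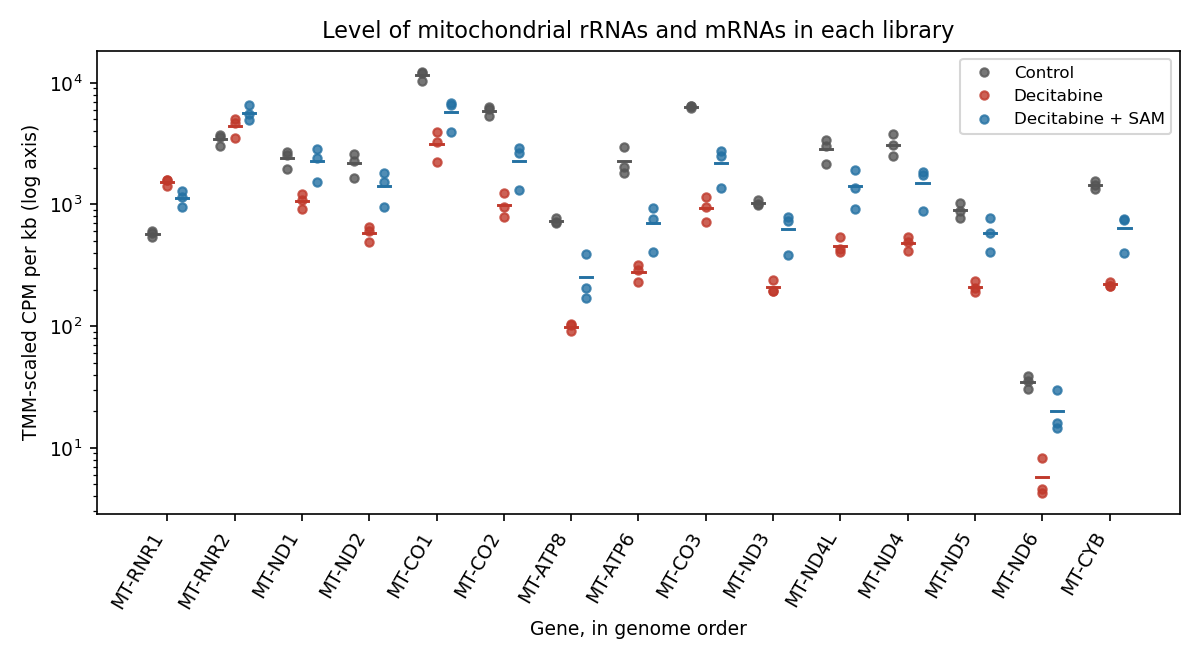
TMM-scaled CPM per kb of gene length (log axis) of the 2 rRNAs and 13 mRNAs in genome order, with 3 libraries per group as points and the group mean as a bar. MT-CO1 averaged 11610 per kb in controls and 3158 per kb after decitabine, while MT-RNR1 averaged 575 and 1539 per kb.

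Among the mRNAs of controls, per kb of gene length, the cytochrome c oxidase subunit MT-CO1 was highest at 11610 ± 1045 CPM per kb (SD, n = 3), followed by MT-CO3 (6366 ± 163) and MT-CO2 (5915 ± 487), whose libraries overlapped. MT-RNR2, MT-ND4, MT-ND4L, MT-ND1, MT-ATP6 and MT-ND2 formed a run from 3449 to 2182 CPM per kb in which each neighbour overlapped the next. MT-CYB, MT-ND3, MT-ND5, MT-ATP8 and MT-RNR1 came below, from 1455 to 575 CPM per kb. MT-ND6, the mRNA of the light strand, was lowest at 34.8 ± 4.499 CPM per kb. After decitabine MT-RNR2 (4402 ± 772 CPM per kb) overlapped MT-CO1 (3158 ± 862), and MT-RNR1 (1539 ± 110) came next, above the other 12 mRNAs. After the combination treatment MT-CO1 (5804 ± 1592) and MT-RNR2 (5662 ± 787) overlapped at the top, and MT-RNR1 (1129 ± 172) came ninth.

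Of the 13 mRNAs, 13 were thus called lower, where 68.8% of all genes tested were called in either direction. The log2 fold changes had a median of -2.61, against 0.035 for all genes tested, and the libraries of the 2 groups did not overlap for any of the 13. How many of all genes tested also lacked overlap was not counted, so the absence of overlap is a description. All 13 calls held in each of the 9 fits without 1 library. The values are described by the complex that each mRNA serves.

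Of complex V, MT-ATP6 (ENSG00000198899, chrM:8527-9207), a subunit of the proton channel of ATP synthase, fell most. Its level was 1239, 1392 and 2029 CPM in controls, 218, 195 and 158 CPM after decitabine, and 518, 640 and 278 CPM after the combination treatment. Every treated library was below every control, and the groups did not overlap. The log2 fold change was -3.03 ± 0.36 after decitabine (8.16-fold lower, edgeR adjusted p = 0.00024), -1.70 ± 0.34 after the combination treatment (edgeR adjusted p = 0.0038) and 1.33 ± 0.34 between the treated groups (edgeR adjusted p = 0.045). This last call was lost in 7 of the 9 fits without 1 library, with a replicate block (edgeR adjusted p = 0.10), in a fit of the 6 libraries compared (0.07) and with no filter (0.089). MT-ATP8, which shares its RNA, gave -2.88 ± 0.31, -1.52 ± 0.29 and 1.36 ± 0.31. When the overlapping genes were summed before the fit the log2 fold changes were -3.02, -1.68 and 1.33.

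Of complex IV, MT-CO3 (ENSG00000198938, chrM:9207-9990) stood at 4848, 5029 and 5096 CPM in controls, 902, 751 and 566 CPM after decitabine, and 2163, 1958 and 1061 CPM after the combination treatment. Controls varied little and lay far above both treatments. Its log2 fold change was -2.75 ± 0.29 after decitabine (6.75-fold lower, edgeR adjusted p = 8.3e-05) and -1.53 ± 0.28 after the combination treatment (edgeR adjusted p = 0.0018). MT-CO2, which carries a copper centre of the enzyme, changed by -2.57 ± 0.32 and -1.37 ± 0.31.

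MT-CO1 (ENSG00000198804, chrM:5904-7445), the catalytic subunit, was the most abundant mRNA in each group, at 16050, 18650 and 19000 CPM in controls, 6098, 5052 and 3457 CPM after decitabine, and 10170, 10550 and 6123 CPM after the combination treatment. Dec_Sam library 3 lay just above the highest decitabine library. The log2 fold change was -1.88 ± 0.26 after decitabine (edgeR adjusted p = 0.00031) and -1.0 ± 0.26 after the combination treatment (edgeR adjusted p = 0.0089). Between the treated groups it was 0.88 ± 0.26 (edgeR adjusted p = 0.056), which made MT-CO1 the 1 mRNA of 13 that did not pass in that comparison, although DESeq2 (adjusted p = 0.012) and voom with limma (adjusted p = 0.017) called it.

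Of complex III the mitochondrial genome encodes cytochrome b, MT-CYB (ENSG00000198727, chrM:14747-15887), the last mRNA of the heavy-strand transcript. Its level was 1535, 1653 and 1794 CPM in controls, 265, 245 and 244 CPM after decitabine, and 854, 861 and 459 CPM after the combination treatment. The decitabine libraries lay close together and the groups did not overlap. Its log2 fold changes were -2.72 ± 0.23 (edgeR adjusted p = 1.1e-05), -1.20 ± 0.22 (edgeR adjusted p = 0.0013) and, between the treated groups, 1.53 ± 0.22 (edgeR adjusted p = 0.0048).

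Complex I takes 7 subunits from the mitochondrial genome. MT-ND1 (ENSG00000198888, chrM:3307-4262), which lies next after the rRNAs, fell least of all mRNAs. It stood at 1884, 2425 and 2585 CPM in controls, 1045, 1172 and 874 CPM after decitabine, and 2315, 2754 and 1466 CPM after the combination treatment. Decitabine lay below both other groups, and the combination treatment overlapped the controls. The log2 fold change was -1.16 ± 0.24 after decitabine (2.23-fold lower, edgeR adjusted p = 0.0028), 1.08 ± 0.24 between the treated groups (edgeR adjusted p = 0.023) and -0.08 ± 0.24 after the combination treatment (edgeR adjusted p = 0.79), and this last value turned to 0.14 with library size alone as the scale and to 0.14 without Dec_Sam library 3.

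The other subunits of complex I on the heavy strand fell by more after decitabine, with log2 fold changes of -1.90 ± 0.27 for MT-ND2, -2.09 ± 0.23 for MT-ND5, -2.30 ± 0.26 for MT-ND3, -2.64 ± 0.31 for MT-ND4L and -2.69 ± 0.31 for MT-ND4. MT-ND4 (ENSG00000198886) was the most abundant of them by CPM, at 3424, 4209 and 5207 CPM in controls, 738, 675 and 574 CPM after decitabine, and 2407, 2527 and 1225 CPM after the combination treatment. The 3 groups did not overlap. MT-ND2 overlapped the controls after the combination treatment, with a log2 fold change of -0.61 ± 0.26 (edgeR adjusted p = 0.072), although DESeq2 (adjusted p = 0.043) and voom with limma (adjusted p = 0.018) called it lower.

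MT-ND6 (ENSG00000198695, chrM:14149-14673) comes from the light strand and is counted on few reads. It had 373, 411 and 321 counts in controls, 53, 57 and 103 after decitabine, and 194, 355 and 179 after the combination treatment. In counts the decitabine libraries lay below all others, and the combination treatment overlapped the controls. Its log2 fold change was -2.61 ± 0.34 after decitabine (edgeR adjusted p = 0.00012), -0.79 ± 0.30 after the combination treatment (edgeR adjusted p = 0.041) and 1.81 ± 0.34 between the treated groups (edgeR adjusted p = 0.011). The call after the combination treatment was lost in 6 of the 9 fits without 1 library and with library size alone as the scale (adjusted p = 0.11).

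Against controls, 11 of 13 mRNAs were downregulated by the combination treatment (31.3% of all genes tested were called lower, 35.9% higher and 67.2% either way), and the median over the 13 was -1.02 on the log2 scale, against 0.048 for all genes tested. The libraries stood apart for 10 of the 13, which was not counted over all genes tested and is a description. MT-ND1 and MT-ND2 were not called by edgeR. The number of mitochondrial genes called lower was 7 without Ctrl library 2, 7 without Ctrl library 3, 10 without Dec_Sam library 3 and 8 with library size alone as the scale. MT-ND3 (-0.71 ± 0.25), MT-ND5 (-0.61 ± 0.22) and MT-ND6 were the members lost most often, whereas MT-CO1, MT-CO2, MT-CO3, MT-ATP8, MT-ATP6 and MT-CYB changed by between -1.0 and -1.70.

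Against decitabine alone, the combination treatment upregulated 12 of 13 mRNAs, beside 7.67% of all genes tested that were called higher (8.02% were called lower and 15.7% either way). Their median log2 fold change was 1.36, against 0.002 for all genes tested. For all 13 the scaled levels did not overlap, a description that was likewise not counted over all genes tested. The largest changes were those of MT-ND6 (1.81 ± 0.34), MT-ND4 (1.63 ± 0.30), MT-ND4L (1.62 ± 0.30) and MT-ND3 (1.59 ± 0.25), the smallest that of MT-CO1. The count of 12 fell to 3 without Dec library 2, to 4 without Dec_Sam library 1 and to 6 without Dec library 3, and it was 13 without Dec_Sam library 3. The calls of MT-CO2, MT-ATP6, MT-ATP8 and MT-ND1 were lost in 8, 7, 5 and 5 of the 9 fits without 1 library, and those of MT-CYB, MT-ND3 and MT-ND5 in none. With no filter on low counts, 5 of the 12 calls were lost (MT-CO2, MT-ND1, MT-ATP6, MT-CO3 and MT-ATP8, edgeR adjusted p of 0.059 to 0.093). The sign of all 13 held in each of the 9 fits without 1 library, in which the log2 fold changes lay between 0.68 (MT-CO1) and 2.18 (MT-ND6).

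**Figure D3:**
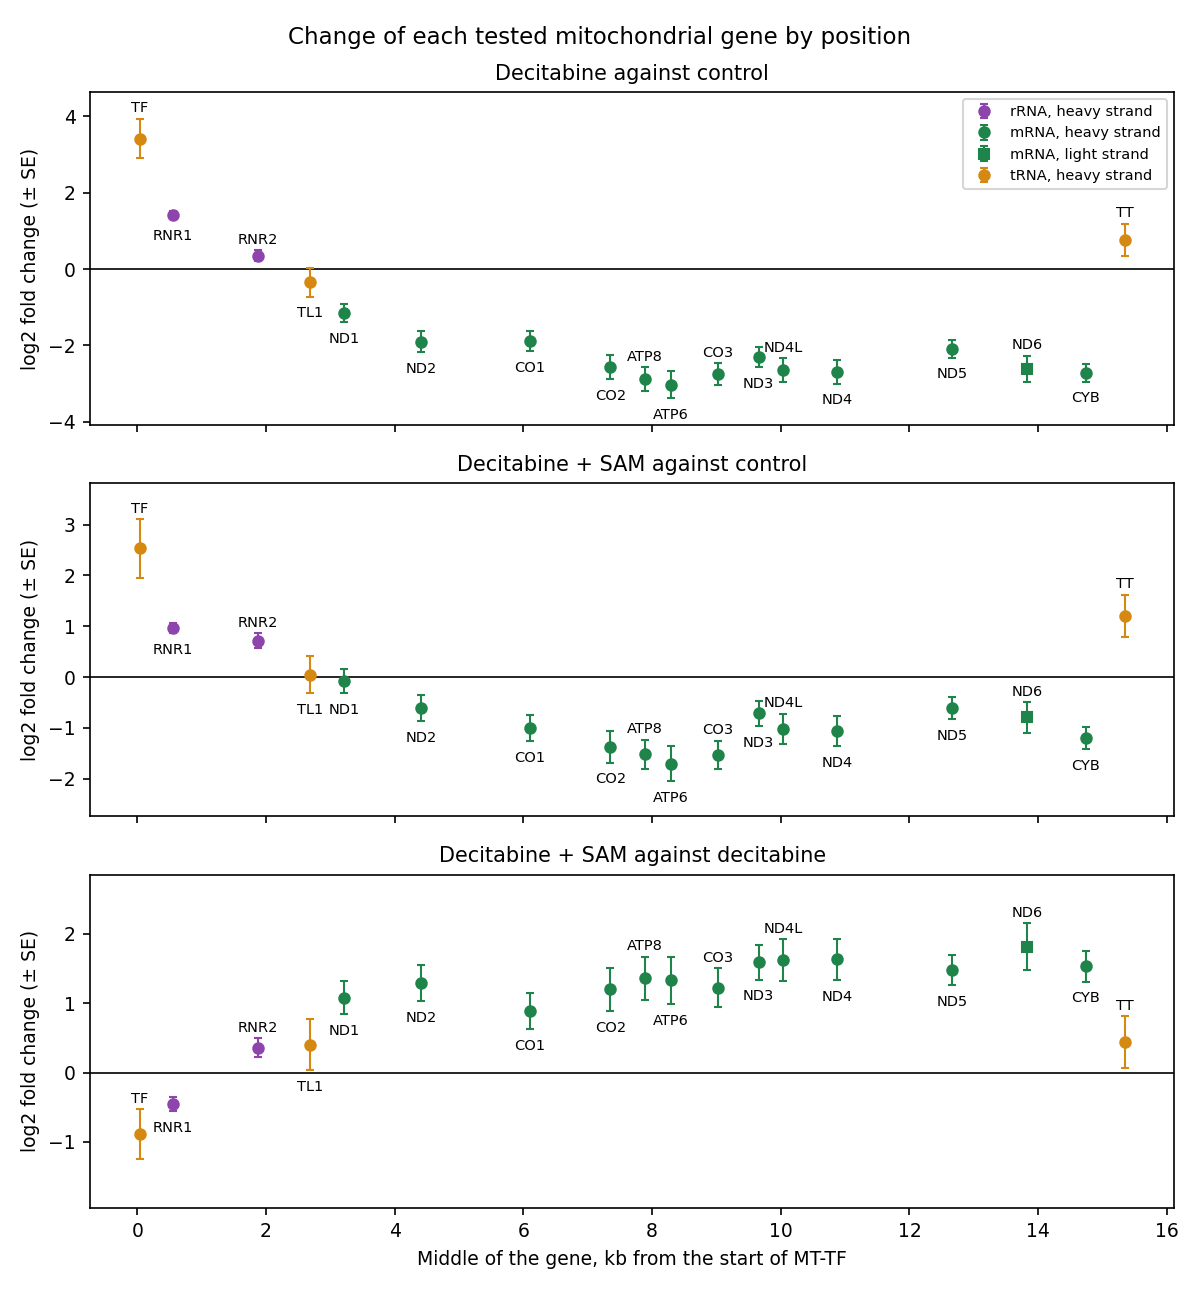
Log2 fold change with its SE for the 18 mitochondrial genes tested, in the 3 comparisons. The horizontal axis is the distance of the middle of each gene from the start of MT-TF in kb. MT-TF passed the filter on low counts only through treated libraries and MT-TT mostly through them, so their values are a description. Circles are genes of the heavy-strand transcript and squares the light-strand gene MT-ND6; after decitabine the values run from 1.42 (MT-RNR1) and 0.35 (MT-RNR2) to -1.16 (MT-ND1) and then to between -1.88 and -3.03, while the tRNAs MT-TF and MT-TT at the ends lie above 0.

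Position along the heavy-strand transcript was then examined. Between neighbouring genes, a step is the change in the log2 ratio of their counts within a library. After decitabine the steps were -1.08 from MT-RNR1 to MT-RNR2, -1.50 from MT-RNR2 to MT-ND1 and -0.73 from MT-ND1 to MT-ND2, and in each the treated libraries lay below all controls. From MT-ND2 to MT-CO1 the step was -0.03, with overlap. A further step of -0.68 followed from MT-CO1 to MT-CO2. From MT-CO2 onward the 9 mRNAs lay between -3.03 and -2.09 without one direction, with a step of -0.30 from MT-CO2 to MT-ATP8, steps upward into MT-ND3 (0.48) and MT-ND5 (0.59) and downward from MT-ND5 to MT-CYB (-0.64).

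Over the 2 rRNAs and 12 heavy-strand mRNAs, the Spearman correlation of the log2 fold change with distance was -0.64 after decitabine, and over the 9 mRNAs from MT-CO2 onward it was 0.33. The 14 genes share libraries and a transcript, so these values describe the order only. The mean log2 counts per kb of MT-ND5 and MT-CYB minus that of MT-ND1 and MT-ND2 was -0.99 ± 0.139 in controls, -1.88 ± 0.143 after decitabine and -1.57 ± 0.0260 after the combination treatment (SD, n = 3 each), and no groups overlapped. Taken as MT-CYB over MT-ND1 per kb, the ratio was 68.3%, 57.1% and 58.2% in controls, 21.2%, 17.5% and 23.4% after decitabine, and 30.9%, 26.2% and 26.2% after the combination treatment.

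For the combination treatment against controls the first 3 steps were -0.25 from MT-RNR1 to MT-RNR2 (overlap), -0.82 from MT-RNR2 to MT-ND1 and -0.52 from MT-ND1 to MT-ND2, and the step from MT-ND2 to MT-CO1 was -0.41. Upward steps into MT-ND3 (0.82) and MT-ND5 (0.47) were present here too, with no overlap. Between the treated groups, the steps of 0.83 into MT-RNR2 and 0.67 into MT-ND1 were the largest, and the log2 fold change rose with distance over the 14 genes (Spearman correlation of 0.87, a description).

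The light-strand mRNA was set against the heavy-strand mRNAs. The log2 ratio of MT-ND6 per kb to the mean of the 12 heavy-strand mRNAs was -5.92, -5.99 and -6.49 in controls, -6.96, -6.69 and -5.59 after decitabine, and -6.34, -5.67 and -5.71 after the combination treatment. The groups overlapped in every comparison. Dec library 3, with 103 counts of MT-ND6 against 53 and 57 in its replicates, had the highest value of all libraries.

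**Figure D4:**
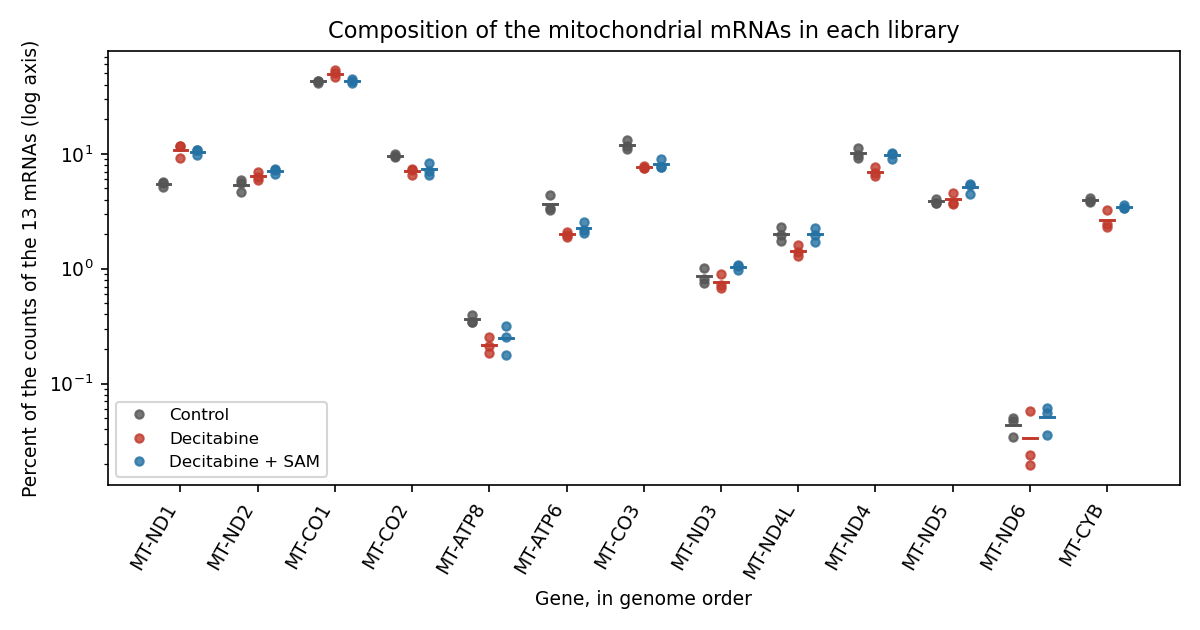
Percent of the summed counts of the 13 mRNAs taken by each (log axis) in the 3 libraries of each group, with the group mean as a bar. MT-ND1 rose from 5.45% in controls to 10.9% after decitabine and 10.4% after the combination treatment, and MT-CO3 went from 11.96% to 7.65% and 8.19%.

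Within the mRNAs, the composition differed between groups in several arrangements. MT-ND1 took 5.10%, 5.64% and 5.62% of mRNA counts in controls, 9.10%, 11.8% and 11.7% after decitabine, and 9.74%, 10.9% and 10.7% after the combination treatment. The treated groups overlapped each other and lay above the controls. MT-ND2 was arranged in the same way, at 5.37% in controls, 6.38% after decitabine and 7.15% after the combination treatment on average. MT-CO2, MT-ATP8, MT-ATP6 and MT-CO3 showed the opposite arrangement, with both treatments below the controls and overlapping each other, for example MT-CO3 at 13.1%, 11.7% and 11.1% in controls, 7.85%, 7.53% and 7.56% after decitabine, and 9.10%, 7.73% and 7.74% after the combination treatment. For these 6 genes the composition after the combination treatment overlapped that of decitabine and not that of controls.

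MT-CO1, MT-ND4 and MT-ND4L were arranged otherwise. MT-CO1 took 43.4%, 43.4% and 41.3% of mRNA counts in controls, 53.1%, 50.7% and 46.2% after decitabine, and 42.8%, 41.7% and 44.7% after the combination treatment. Decitabine lay above both other groups, which overlapped. MT-ND4 lay at 10.1% ± 1.07 in controls, 6.95% ± 0.641 after decitabine and 9.68% ± 0.644 after the combination treatment (SD, n = 3 each), where decitabine lay below both. For these 3 genes the composition after the combination treatment overlapped that of controls and not that of decitabine. MT-CYB stood apart in all 3 comparisons, at 3.97% in controls, 2.68% after decitabine and 3.45% after the combination treatment on average. The share of MT-ND3 was higher after the combination treatment (1.03%) than after decitabine (0.767%), and both overlapped the controls. MT-ND5 was higher after the combination treatment (5.12%) than in controls (3.85%) and otherwise overlapped, as MT-ND6 did in every comparison.

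The tRNAs, 59 to 75 bases long, were scarcely counted. In no library did 17 of the 22 reach 10 counts, 4 were at 0 throughout (MT-TR, MT-TH, MT-TS2 and MT-TL2, which allows up to 3 counts over the series) and 3 passed the filter. MT-TF, the tRNA for phenylalanine that opens the heavy-strand transcript, had 3, 1 and 1 counts in controls, 23, 26 and 18 after decitabine, and 7, 17 and 11 after the combination treatment. Both treatments lay above the controls. The ratio of summed, scaled counts to controls was 11.4 after decitabine (exact 95.0% interval 4.65 to 36.2) and 6.11 after the combination treatment (2.38 to 19.98), intervals that cover counting error only. MT-TF passed the filter only through treated libraries, where it is high, so its test is not given. For the same reason the ratios and intervals, from counts pooled over 3 libraries, are a description and no evidence of a change. It lies directly before MT-RNR1, with no base between them, and reads that span the border may be counted on either.

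MT-TT, the tRNA for threonine at the far end, had 7, 5 and 11 counts in controls, 24, 13 and 9 after decitabine, and 19, 24 and 18 after the combination treatment. The combination treatment lay above the controls and decitabine overlapped them. Its log2 fold change was 1.20 ± 0.42 after the combination treatment and 0.76 ± 0.43 after decitabine. It passed the filter through libraries that were mostly treated, where its counts are higher, so these values are a description. MT-TL1, the tRNA for leucine after MT-RNR2, had 88, 81 and 104 counts summed over the 3 groups and passed in no comparison, with adjusted p-values of 0.42, 0.92 and 0.50 (edgeR).

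By strand, the 14 tRNAs of the heavy-strand transcript summed to 120 counts in controls, 205 after decitabine and 219 after the combination treatment. After decitabine much of the difference came from MT-TF (5, 67 and 35 counts in the 3 groups). After the combination treatment MT-TT (23, 46 and 61 counts) and MT-TL1 (88, 81 and 104) were also above controls. The 11 other than MT-TF, MT-TL1 and MT-TT summed to 4, 11 and 19 counts. The 8 tRNAs of the light-strand transcript summed to 25, 29 and 18 counts in the control libraries, 5, 7 and 7 after decitabine, and 27, 36 and 11 after the combination treatment. Decitabine lay below every other library on this strand, as MT-ND6 did. None of the 8 passed the filter on low counts. With no filter, MT-TE, the tRNA for glutamate next to MT-ND6, was called lower after decitabine (30 counts in controls, 7 after decitabine, edgeR adjusted p = 0.0011), as was MT-TC (11 and 1 counts, edgeR adjusted p = 0.0086), whereas MT-TP (adjusted p = 0.062) and MT-TN (adjusted p = 0.43) were not. MT-TC had 1, 5 and 5 counts in the control libraries and 1, 0 and 0 after decitabine, so the groups overlapped in counts. MT-TE was also called lower after the combination treatment (edgeR adjusted p = 0.040). Its counts were 17, 7 and 6 in controls and 3, 9 and 1 after that treatment, which overlap. MT-TC and MT-TN were called higher after the combination treatment than after decitabine (edgeR adjusted p of 0.0023 and 0.026). All of these calls rest on few counts of genes that failed the filter, so they are a description. Whether the library preparation kept strand is not given in the sources used here, so reads of overlapping or antisense RNA cannot be told apart from these.

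Nuclear copies of mitochondrial genes share sequence with their parents, and 404 of them were listed in the files. Of the 31-base words of a gene, 66.7% for MT-CO1, 62.8% for MT-ATP6 and 56.9% for MT-ND2 also occurred in an annotated nuclear transcript, but 5.0% for MT-CYB, 3.5% for MT-ND3, 17.9% for MT-RNR1, 1.2% for MT-RNR2 and none for any tRNA. MTATP6P1 on chromosome 1 was the highest copy by count. Its counts were 3822, 5132 and 5820 in controls, 1002, 840 and 591 after decitabine, and 2093, 2488 and 947 after the combination treatment, between 15.7% and 18.0% of its parent in each group. MTND2P28 (4.17% to 4.54% of MT-ND2) and MTCO1P12 (0.158% to 0.181% of MT-CO1) also followed their parents, with log2 fold changes of -1.78 and -2.07 after decitabine. MTCO3P12 and MTND1P23 had mean counts of 10.5 and 7.01. Together the copies held 0.0336% of counts in controls, 0.00750% after decitabine and 0.0170% after the combination treatment. MT-CYB (-2.72) and MT-ND3 (-2.30), with few shared words, lay within the range of the other mRNAs after decitabine. Adding the copies to their parents changed the difference in the share of all counts between decitabine and controls from -2.39 to -2.42 percentage points. The counts of the copies are themselves estimates of how shared reads divide, so this sum does not measure that division. Nuclear genes not named as copies, such as ENSG00000289901 with 14.2% of the words of MT-RNR1, were not added. The part of reads assigned to the wrong gene was not tested.

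Whether the libraries were selected by poly(A) tail is likewise not given in the sources used here. Human mitochondrial mRNAs other than MT-ND6 carry such a tail, and the rRNAs a very short one. A list of 12 nuclear RNAs without the tail summed to 4.75 to 6.50 CPM in controls, 2.40 to 3.34 CPM after decitabine and 3.82 to 5.06 CPM after the combination treatment. Of its 3 tested members, RN7SL1 (-1.39 ± 0.31) and RN7SL2 (-1.56 ± 0.36) were downregulated after decitabine and RN7SK (0.17 ± 0.36) was not called, with 1 member at 0 in all libraries. These levels were low, with RN7SL1 at 2.56 CPM in controls and 0.971 CPM after decitabine, and RN7SL2 at 1.42 and 0.48 CPM. After the combination treatment RN7SL1 was called lower (-0.72 ± 0.30) and RN7SL2 was not called (-0.45 ± 0.32). Members of the list did not all move one way, as SNORD3A, not tested, averaged 0.183 CPM in controls and 0.465 CPM after decitabine. The part of RNA selection in the results was not tested.

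The nuclear genome encodes the other subunits of the same complexes. Of 74 such genes of complexes I, III, IV and V, all of which were tested, 62 were downregulated and 1 upregulated by decitabine, and the median was -0.56 (log2) against -2.61 for the 13 mitochondrial mRNAs. Of all genes tested, 32.5% were called lower and 36.3% higher. After the combination treatment 47 were downregulated and 6 upregulated (median -0.35), beside 31.3% and 35.9% of all genes, and against decitabine 19 were upregulated and 1 downregulated (median 0.23), beside 7.67% and 8.02%. By complex, the median after decitabine was -0.57 for complex I, -0.56 for III, -0.26 for IV and -0.62 for V. Library size alone as the scale called 3758 of 18532 genes lower and 8838 higher after decitabine, and 3864 and 8685 after the combination treatment. Of the 74 subunits, 49 were lower and 5 higher on that scale after decitabine, and 32 and 18 after the combination treatment. The largest decreases were those of the accessory subunits NDUFA7 (-1.49 ± 0.14) and NDUFA9 (-1.25 ± 0.09) after decitabine and of NDUFA7 (-1.69 ± 0.14) and UQCRC2 (-1.54 ± 0.08), a core protein of complex III, after the combination treatment. ATP5MK rose after both treatments (0.31 ± 0.09 and 0.54 ± 0.09) and ATP5F1E after the combination treatment (0.46 ± 0.09). UQCRH (0.48 ± 0.08) and NDUFB3 (0.45 ± 0.08) rose most and UQCRC2 fell (-0.53 ± 0.08) between the treated groups, where the count of 19 was 5 without Dec_Sam library 2, 7 without Dec library 2, 8 without Dec_Sam library 1 and 45 without Dec_Sam library 3.

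**Figure D5:**
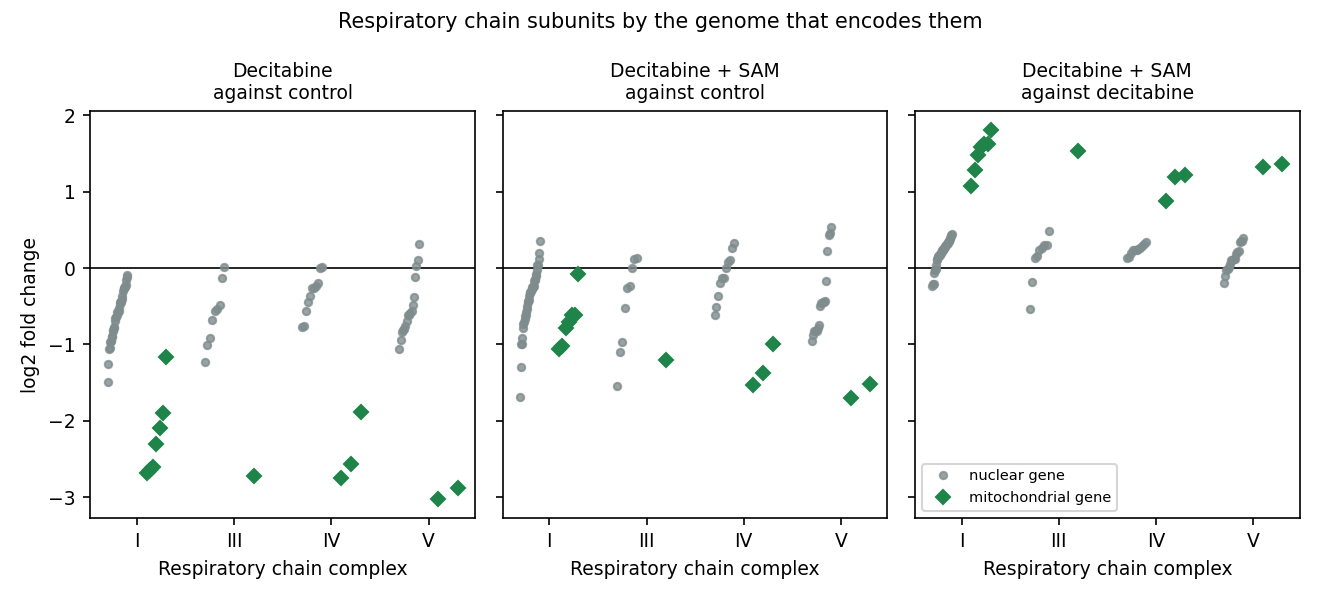
Log2 fold change of each subunit of respiratory chain complexes I, III, IV and V in the 3 comparisons, with the 74 nuclear genes as grey circles and the 13 mitochondrial genes as green diamonds. After decitabine the nuclear genes had a median of -0.56 and the mitochondrial genes of -2.61, and between the treated groups the medians were 0.23 and 1.36.

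Of 34 nuclear genes for maintaining mitochondrial DNA and making, processing, stabilising and degrading its RNA, 20 were downregulated and 2 upregulated by decitabine (median -0.35), 20 and 2 by the combination treatment (median -0.29), and 3 and 2 when the combination treatment was compared with decitabine (median 0.09). The 22, 22 and 5 genes called in either direction stood beside 68.8%, 67.2% and 15.7% of all genes tested, a share near that of all genes. By direction, 32.5%, 31.3% and 8.02% of all genes tested were called lower and 36.3%, 35.9% and 7.67% higher. Against controls, the list thus held more lower and fewer higher calls than these shares. With library size alone as the scale, 13 were lower and 9 higher after decitabine and 10 and 9 after the combination treatment. Beside them, 3758 of 18532 genes tested were lower and 8838 higher after decitabine, and 3864 and 8685 after the combination treatment. Between the treated groups the 2 higher calls, SLIRP and POLG, became 0 without Dec library 1, Dec library 2, Dec_Sam library 1 or Dec_Sam library 2, 1 without Ctrl library 2 or Dec library 3, and 6 without Dec_Sam library 3. PNPT1, the polynucleotide phosphorylase of the mitochondrial RNA degradosome, was upregulated by decitabine (0.48 ± 0.10, edgeR adjusted p = 0.0008) and downregulated by the combination treatment (-0.43 ± 0.10, edgeR adjusted p = 0.0020). Its level was 101 ± 5.50 CPM in controls, 141 ± 14.0 CPM after decitabine and 75.2 ± 11.4 CPM after the combination treatment (SD, n = 3 each), so that between the treated groups it changed by -0.90 ± 0.10 (edgeR adjusted p = 0.00032). SLIRP, the partner of LRPPRC in protecting mitochondrial mRNAs, changed the other way between the treated groups (0.32 ± 0.09, edgeR adjusted p = 0.035) after a decrease under decitabine of -0.52 ± 0.09.

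PDE12, which removes poly(A) tails from mitochondrial RNAs, was upregulated by both treatments (0.48 ± 0.07 and 0.38 ± 0.07). TFB1M, which methylates the 12S rRNA, was downregulated by decitabine (-1.19 ± 0.11) and further by the combination treatment (-1.83 ± 0.12, and -0.64 ± 0.12 between them). FASTKD2, which binds the 16S rRNA, fell by a similar amount in both (-1.17 ± 0.09 and -1.25 ± 0.09). POLG, the mitochondrial DNA polymerase, rose after the combination treatment (0.37 ± 0.07) and was higher than under decitabine (0.27 ± 0.07). Of the 10 genes for transcription and maintenance of mitochondrial DNA, 4 were downregulated and 0 upregulated by decitabine, and 4 and 1 by the combination treatment. Of all genes tested, 32.5% were called lower and 36.3% higher after decitabine, and 31.3% and 35.9% after the combination treatment.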

How the data were processed

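Total RNA of 9 PC-3 libraries, 3 per group, was sequenced on a BGISEQ-500. The authors trimmed reads with Trim Galore 0.6.4 and counted them with kallisto on GRCh38.p13, and they deposited estimated counts per Ensembl gene for each library, with decimals, which were rounded here. The annotation release, RNA selection and strand setting are not given in the sources used here. Deposited log2 CPM values were not used. Symbols came from GENCODE 44 (60357 of 60617 IDs matched). One listed gene, FASTKD4, was not found under that symbol. The members and gene lists were chosen with earlier results of these data known.

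The main test was edgeR 4.0.16 (glmQLFit, robust, and glmQLFTest) in R 4.3.3, with TMM scaling, filterByExpr, all 9 libraries in 1 fit and Benjamini-Hochberg adjustment over 18532 genes at 0.05. Ratios and shares have no test. On simulated counts in which few genes were changed, the script recovered most of the changes put in. In these data 68.8% of all genes tested were called after decitabine, so the simulation does not test the scaling used here. Alternatives were other scalings, DESeq2 1.42.0, voom with limma 3.58.1 (the authors' choice), other filters, fewer libraries and a replicate block. Named were all mRNAs and rRNAs, the tRNAs that passed the filter, the 2 largest called changes each way per nuclear list and the 5 nuclear copies with most counts; MT-TE, MT-TC, MT-TP, MT-TN, RN7SK and the epithelial and other-cell markers were added after their values were seen. No libraries within a group agreed within sampling noise (chi-square per degree of freedom 5.86 to 23.5). Intervals on tRNA ratios are exact binomial and cover counting error only.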

Additional observations from a re-analysis of the deposited data

How the results depend on the processing

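After decitabine, all 13 mRNAs were called lower under every alternative run, and MT-RNR1 was called higher. Library size alone as the scale moved the median over all genes tested (log2) from 0.035 to 0.28 after decitabine and from 0.048 to 0.267 after the combination treatment. It called 8838 genes higher and 3758 lower after decitabine, and 8685 and 3864 after the combination treatment. With it the RNA machinery had 9 genes higher and 13 lower after decitabine and 9 and 10 after the combination treatment. The nuclear subunits had 5 and 18 higher, 3 were lower between the treated groups, and MT-ND1 after the combination treatment reversed to 0.14. Between the treated groups, DESeq2 called 2 nuclear subunits lower, no filter called 36 higher, and a fit of the 6 libraries compared called 1 machinery gene higher and 8 mitochondrial genes higher. With no filter the count of mitochondrial genes lower after decitabine was 15 (MT-TE and MT-TC were added), and between the treated groups MT-CO2 (edgeR adjusted p = 0.093), MT-ATP6 (0.089), MT-ND1 (0.066), MT-CO3 (0.066) and MT-ATP8 (0.059) lost their calls, while MT-RNR2, MT-TC and MT-TN were called higher. MT-TL1 after the combination treatment was -0.00096 with voom. The rRNA to mRNA ratio of decitabine against controls was 2.48 with MT-RNR2 alone, and MT-CYB against MT-ND1 gave -1.57, -1.14 and 0.43 for the 3 comparisons. The cause of these shifts was not tested.

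Leaving out 1 library at a time, mitochondrial genes lower after the combination treatment numbered 7 to 12, and between the treated groups 3 to 13 were higher and 0 to 1 lower. Machinery genes higher between the treated groups numbered 0 to 6, nuclear subunits 5 to 45 higher and 1 to 3 lower, and subunits higher after the combination treatment 4 to 10. After the combination treatment MT-ND1 ranged from -0.29 to 0.14 and MT-TL1 from -0.30 to 0.33, and MTCO3P12 between the treated groups ranged from -0.02 without Dec library 2 to 1.14 without Dec library 1.

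Same-numbered libraries correlated between -0.017 and 0.233 in their deviations from the group means, and libraries with different numbers between -0.22 and 0.058. The highest values were those of Dec with Dec_Sam for library 1 (0.233) and library 3 (0.229), beside 0.036 for library 2. Whether libraries with the same number share a batch was not tested. With the replicate number as a block, nuclear subunits higher between the treated groups numbered 35, mitochondrial genes 10 (MT-CO2 and MT-ATP6 were lost), and mitochondrial genes lower after the combination treatment 10 (MT-ND5 was lost).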
